A study of Homo sapiens with 17 samples.

Results

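Metallothioneins are small, cysteine-rich proteins that bind zinc and copper, and they buffer free metal in most cells, with high output in the liver. Their genes are switched on when the zinc-sensing transcription factor MTF1 binds short metal response elements in the promoter, and glucocorticoids and oxidative stress also induce several of them. Here 9 genes of this system, of 19867 listed, were followed in newly made RNA: MT2A (ENSG00000125148), MT1X (ENSG00000187193), MT1E (ENSG00000169715), MT1F (ENSG00000198417), MT1G (ENSG00000125144), MT1M (ENSG00000205364) and MT1A (ENSG00000205362), which are 7 metallothioneins, with SLC30A1 (ENSG00000170385), the zinc exporter of the plasma membrane, and MTF1 (ENSG00000188786) itself. The genes were chosen by a list of Ensembl IDs whose names come with that list, because MT2A and MT1X had lower counts with VT107 and not with intetumumab. The values of these 2 genes in those comparisons therefore chose them and are given as a description, with no p-value.

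The measurements are SLAM-seq counts from SNU-761, an established wild-type human liver carcinoma line. In SLAM-seq, cells take up thiouridine and an iodoacetamide treatment makes it read as C instead of T, so reads with T>C changes stand for RNA made while the label was present. One experiment held cells given 2.15 µM or 0.1 µM of VT107, an inhibitor of all TEAD transcription factors, and DMSO controls, with 2 libraries each. The other held cells given 5 µg/ml or 1.5 µg/ml of an intetumumab biosimilar, an antibody to the integrin ITGAV, and controls given a human isotype IgG1 at 5 µg/ml, with 3 libraries each, so the 1.5 µg/ml group was set against a control at a higher antibody dose. All 15 were collected at 4 h, and each experiment also had 1 library from cells with no thiouridine. Nothing in the labels says that replicates were separate cultures, and p-values therefore cover only the spread among these libraries, which may be technical. The liver carcinoma label was not checked here against marker genes, because marker names were not paired with the IDs.

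The labelled libraries held 435343 to 1778876 counts, and replicates of every group differed by more than counting noise (chi-square per degree of freedom 3.66 to 8.52). Levels are given as counts per 1000000 (CPM) after TMM scaling within an experiment. Fold changes are log2 values of the treated group over its control, and a called gene is one whose p, adjusted over all genes tested, was under 0.05. Both doses of an agent shared the same control libraries.

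The 7 metallothionein genes lie close together on chromosome 16 in the RefSeq annotation of GRCh38.p14. Other genes that may lie between them were not listed here. In order they are MT2A (16:56608584-56609497), MT1E (16:56625781-56627112), MT1M (16:56632659-56633981), MT1A (16:56638666-56640087), MT1F (16:56657959-56659303), MT1G (16:56666730-56668065) and MT1X (16:56682470-56684196). SLC30A1 (1:211571568-211579161) and MTF1 (1:37809574-37859592) are on chromosome 1. All 9 are protein-coding genes.

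The promoters of MT2A, MT1X and SLC30A1 are shown because they carry the sequence through which MTF1 is known to act, and because MT2A and MT1X had lower levels with VT107 while those of SLC30A1 at 2.15 µM overlapped DMSO. Each line gives the 250 bases before the gene start, 5′ to 3′ on the gene's strand, from RefSeq (GRCh38.p14). They cover chr16:56608334-56608583 on the plus strand for MT2A, chr16:56682220-56682469 on the plus strand for MT1X and chr1:211579162-211579411 on the minus strand for SLC30A1. Capitals mark each match to the core of the metal response element, read on either strand.
MT2A: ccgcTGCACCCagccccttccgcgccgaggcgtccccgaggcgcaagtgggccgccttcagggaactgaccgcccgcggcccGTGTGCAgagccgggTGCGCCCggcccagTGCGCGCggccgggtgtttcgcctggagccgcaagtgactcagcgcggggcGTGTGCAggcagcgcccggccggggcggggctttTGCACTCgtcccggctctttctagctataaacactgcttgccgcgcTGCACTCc
MT1X: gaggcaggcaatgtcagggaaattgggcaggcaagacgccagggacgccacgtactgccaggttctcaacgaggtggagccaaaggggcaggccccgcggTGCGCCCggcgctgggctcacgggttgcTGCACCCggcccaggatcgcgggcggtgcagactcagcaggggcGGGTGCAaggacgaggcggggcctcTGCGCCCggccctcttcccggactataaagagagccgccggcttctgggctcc
SLC30A1: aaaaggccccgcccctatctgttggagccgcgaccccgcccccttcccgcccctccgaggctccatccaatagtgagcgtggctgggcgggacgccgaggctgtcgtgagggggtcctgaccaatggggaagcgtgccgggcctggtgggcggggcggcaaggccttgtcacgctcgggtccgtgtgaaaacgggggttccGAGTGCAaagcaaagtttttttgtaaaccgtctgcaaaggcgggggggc

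The core was searched as TGCACNC or TGCGCNC on both strands, in the 300 bases that run from 250 before the gene start to 50 after it. MT2A held 8 matches, 7 of them before the start, and 7 of 35116 gene windows (0.0199%) held as many. MT1X held 4 matches, all before the start, and 0.601% of windows held as many. SLC30A1 held 2 matches, 1 before and 1 after the start, and 8.60% of windows held as many. MTF1 held 0, and 29.6% of all windows held at least 1. These matches describe letters and not binding. No window was found for MT1F, MT1G, MT1E, MT1M or MT1A. Whether the number of matches goes with the fold change was not tested.

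Motifs of other factors were searched in the same windows of MT2A, MT1X, SLC30A1 and MTF1. CATTCC, the motif of the TEAD factors that VT107 inhibits, was in 0 of the 4 windows and in 14.0% of all windows. TGANTCA, the AP-1 motif, was found once, in MT2A, and in 7.71% of all windows. TGACNNNGC, the antioxidant response element, was found once each in MT2A, MT1X and SLC30A1 and in 13.4% of all windows. In MT2A the AP-1 and antioxidant matches begin at the same base, 104 before the start, and overlap. Absence of a motif here says only that its letters are not in this window.

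**Figure D1:**
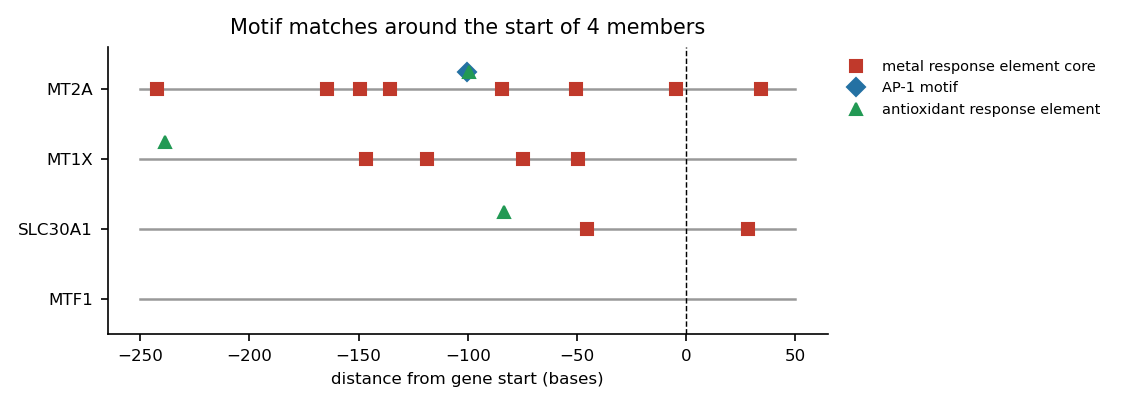
Motif matches by distance from the gene start (bases, x axis) for MT2A, MT1X, SLC30A1 and MTF1, on both strands; squares are metal response element cores, the diamond is the AP-1 motif and triangles are antioxidant response elements. MT2A carries 8 cores and MT1X 4, while SLC30A1 carries 2 and MTF1 0. The other members, MT1F among them, had no window.

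MT2A was the metallothionein with the most counts in every labelled library, and its new RNA was lower at both VT107 doses. It stood at 384 and 421 CPM at 2.15 µM of VT107, against 1766 and 1360 CPM in DMSO. The groups did not overlap, which held for 44.7% of all genes tested. The mean of MT2A was 403 ± 26.1 CPM at 2.15 µM and 1563 ± 287 CPM in DMSO (SD, n = 2 each). The fold change was -1.96 (SE 0.19), a level 3.88-fold lower. At 0.1 µM it stood at 537 and 496 CPM (mean 517 ± 28.9, SD, n = 2), also below both DMSO libraries. Libraries of these groups did not overlap for 39.7% of all genes. The fold change of MT2A was -1.60 (SE 0.19), 3.03-fold lower. For 2.15 µM over 0.1 µM the fold change was -0.36 (SE 0.19), and the libraries did not overlap, which held for 39.1% of all genes tested. In bulk RNA, fewer cells making a transcript and less of it per cell cannot be told apart.

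MT1X, a further metallothionein of the same cluster, had a larger fold change between the doses. It stood at 9.74 and 12.3 CPM at 2.15 µM of VT107, from 18 and 16 counts, against 155 and 75.4 CPM in DMSO, from 144 and 78 counts. The mean was 11.0 ± 1.84 CPM at 2.15 µM and 115 ± 55.9 CPM in DMSO (SD, n = 2 each). The fold change was -3.38 (SE 0.51), a level 10.4-fold lower. At 0.1 µM it stood at 40.1 and 67.8 CPM, from 34 and 54 counts, below both DMSO libraries. Libraries of these groups did not overlap for 39.7% of all genes. The fold change of MT1X was -1.09 (SE 0.46). At 2.15 µM it was 4.89-fold lower than at 0.1 µM (fold change -2.29, SE 0.51), and the libraries of the doses did not overlap, as for 39.1% of all genes. Neither MT1X nor MT2A was called between the doses by edgeR, and whether MT1X differed more than MT2A was not tested. The DMSO replicates of MT1X lay far apart, and without DMSO replicate 1 the fold change at 0.1 µM was -0.49.

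**Figure D2:**
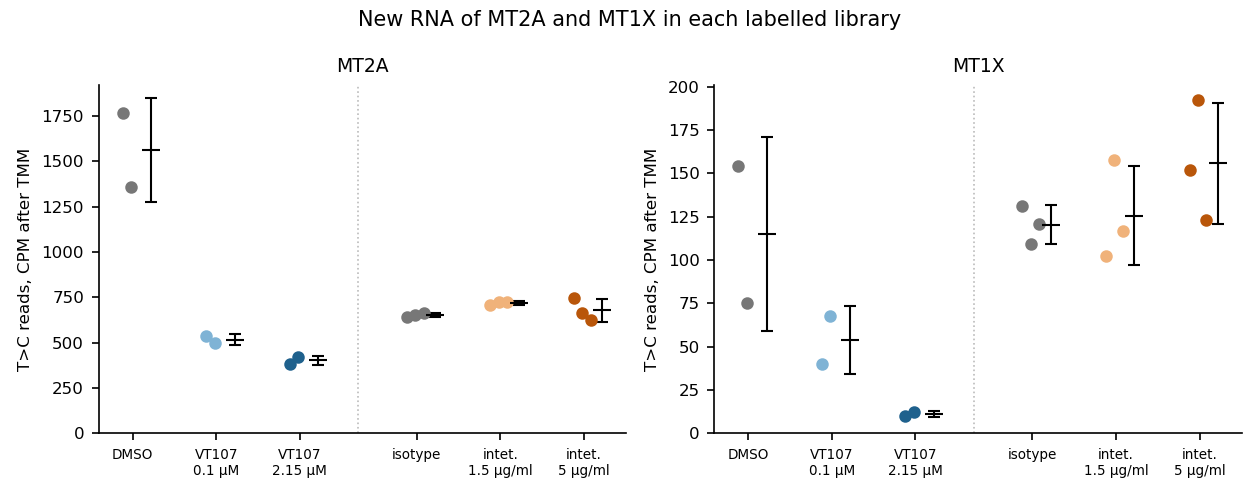
New RNA of MT2A (left) and MT1X (right) in CPM after TMM scaling (y axis) by group; points are libraries, and the bar beside them is the mean ± SD, with each experiment scaled on its own on either side of the dotted line. MT2A at 384 to 537 CPM with VT107 lies below both DMSO libraries, and MT1X at 2.15 µM lies at 9.74 and 12.3 CPM.

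The share that MT1X took of the counts of MT1X and MT2A does not depend on library scaling. It was 2.47% (Wilson 95% interval 1.57 to 3.87) and 2.85% (1.76 to 4.57) at 2.15 µM of VT107, against 8.05% (6.87 to 9.40) and 5.25% (4.23 to 6.51) in DMSO. At 0.1 µM it was 6.94% (5.01 to 9.54) and 12.0% (9.34 to 15.4), within or above the DMSO libraries. The share was thus below both DMSO libraries at the higher dose alone. Both genes were chosen on their counts with VT107, so the shares and their intervals are a description only. These intervals cover at most counting error, since copies made by PCR are not independent molecules. All 6 MT1X counts of this experiment were even, so fewer reads may lie behind them. The intervals may then be too narrow, and a constant factor would change the shares themselves.

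With intetumumab the same 2 genes stayed near the isotype libraries. MT2A stood at 749, 663 and 624 CPM at 5 µg/ml, against 644, 653 and 665 CPM with isotype, and the groups overlapped (fold change 0.05, SE 0.12). MT2A stood at 706, 723 and 724 CPM at 1.5 µg/ml, slightly above all 3 isotype libraries (fold change 0.13, SE 0.12). Libraries of these groups did not overlap for 12.3% of all genes. MT1X stood at 152, 192 and 123 CPM at 5 µg/ml, against 131, 109 and 121 CPM with isotype, and the groups overlapped (fold change 0.37, SE 0.24). MT1X stood at 102, 158 and 117 CPM at 1.5 µg/ml, on both sides of the isotype libraries (fold change 0.07, SE 0.24).

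The effect of VT107 at 2.15 µM minus that of intetumumab at 5 µg/ml, fitted over all 15 labelled libraries, was -2.00 (SE 0.21) for MT2A and -3.75 (SE 0.51) for MT1X on the log2 scale. The doses of the 2 agents are not matched, and the agents were run in separate experiments with different controls. With all 15 libraries scaled together, MT2A was lowest at 2.15 µM (391 and 428 CPM), next at 0.1 µM (502 and 545 CPM), then in all 9 libraries of the intetumumab experiment (617 to 728 CPM), and highest in DMSO (1365 and 1817 CPM). The DMSO libraries therefore stood above the isotype libraries in MT2A, while the VT107 libraries stood below them. For MT1X the order was 2.15 µM (9.91 and 12.6 CPM), 0.1 µM (40.7 and 68.6 CPM) and then DMSO (75.7 and 159 CPM), whose range overlapped that of the 9 intetumumab-experiment libraries (101 to 189 CPM). Vehicle, isotype and experiment cannot be told apart in a comparison of DMSO with isotype.

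MT1F and MT1A, also metallothioneins of the cluster, had few counts in the VT107 experiment. MT1F had 12 and 30 counts at 2.15 µM (6.49 and 23.1 CPM), against 18 and 2 counts in DMSO (19.3 and 1.93 CPM). At 0.1 µM it had 8 and 12 counts. The groups overlapped, and edgeR's quasi-likelihood test gave fold changes of 0.47 (SE 1.04, adjusted p 0.906) at 2.15 µM and 0.22 (SE 1.08, adjusted p 0.960) at 0.1 µM. At 2.15 µM the 95% interval of MT1F was -1.91 to 2.86. With intetumumab MT1F stood at 34.6, 46.0 and 49.9 CPM at 5 µg/ml, against 24.6, 35.9 and 45.4 CPM with isotype, and the groups overlapped (fold change 0.31, SE 0.35, adjusted p 0.829 by edgeR). The lower dose gave a fold change of 0.29 (SE 0.35, adjusted p 0.985 by edgeR). The difference between the effects of the 2 agents was 0.15 for MT1F (SE 0.92, adjusted p 0.981 by edgeR). MT1A had 0 to 6 counts in any library, 20 over the VT107 experiment and 14 over that with intetumumab, and did not pass the filter on low counts; with no filter its adjusted p by edgeR was 0.916 to 1 for VT107 against DMSO and 0.949 to 0.980 for intetumumab against isotype. With all 15 libraries scaled together, MT1F ranged from 1.94 to 23.5 CPM where VT107 was tested and from 24.1 to 52.2 CPM where intetumumab was tested, controls included in both.

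MT1G, a metallothionein of the same cluster, was counted in one experiment alone. It had 69, 165 and 130 counts at 5 µg/ml of intetumumab (159, 223 and 167 CPM), against 133, 204 and 216 counts with isotype (182, 282 and 233 CPM). At 1.5 µg/ml it had 165, 162 and 66 counts (222, 188 and 138 CPM). Both doses overlapped the isotype libraries, with fold changes of -0.34 (SE 0.23, adjusted p 0.694 by edgeR) at 5 µg/ml and -0.34 (SE 0.23, adjusted p 0.960 by edgeR) at 1.5 µg/ml.

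In the VT107 experiment MT1G had 0 counts in all 6 labelled libraries, DMSO included, so it carries no information on VT107. This was 0 of 6766775 counts, which allows up to 0.443 CPM, against 1310 of 6525692 counts (201 CPM) in the intetumumab experiment, at least 453-fold lower, with the floor of 3 counts taken over the 6 libraries. Of 4031 genes with at least 20 counts in each of the 9 intetumumab-experiment libraries, MT1G was the only 1 listed at 0 in all 6 VT107-experiment libraries. In the other direction it was 0 of 5363 genes. Among the 6292 genes at 0 in those 6 libraries, the next highest had 83 counts in the intetumumab experiment. What sets the 2 experiments apart for MT1G was not tested.

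The last metallothioneins were nearly or wholly uncounted. MT1E had 3 counts, all in 1 library at 1.5 µg/ml of intetumumab. MT1M had 0 of 13292467 counts over the 15 labelled libraries, which allows up to 0.226 CPM.

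**Figure D3:**
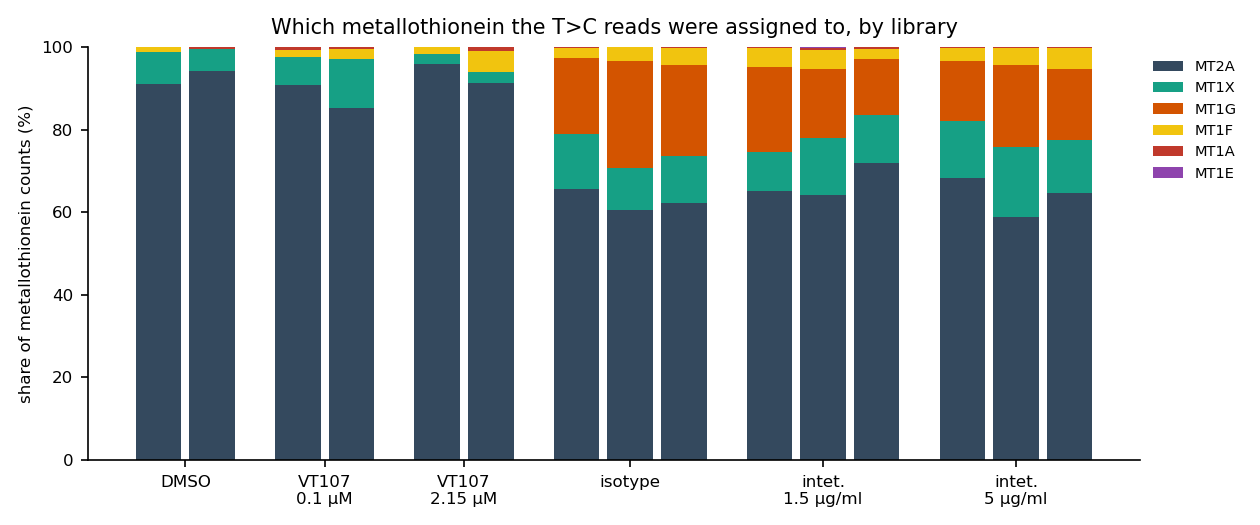
Share of the metallothionein counts (%, y axis) given to each gene in each labelled library (1 bar per library, by group). MT2A takes 85.3 to 96.0% in the VT107 experiment and 58.8 to 71.8% in the intetumumab experiment, where MT1G is counted as well.

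Summed over the 7 metallothioneins, new RNA was 400 and 461 CPM at 2.15 µM of VT107, against 1943 and 1443 CPM in DMSO, and at 0.1 µM it was 591 and 582 CPM. The log2 ratio of the means was -1.97 at 2.15 µM and -1.53 at 0.1 µM, and most of the sum is MT2A, whose values were used to choose the list. With intetumumab the sum was 1063 ± 86.6 CPM at 5 µg/ml and 1073 ± 60.6 CPM at 1.5 µg/ml, against 1043 ± 52.7 CPM with isotype (SD, n = 3 each). The log2 ratios of 0.03 and 0.04 were smaller than the spread between replicates. MT2A made up 85.3 to 96.0% of the metallothionein counts in the VT107 experiment and 58.8 to 71.8% where intetumumab was tested.

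SLC30A1, the zinc exporter and itself a target of MTF1, showed no change that passed the test with VT107. It stood at 140 and 122 CPM at 2.15 µM, against 116 and 130 CPM in DMSO, and the groups overlapped (fold change 0.09, SE 0.26, adjusted p 0.931 by edgeR). At 0.1 µM it stood at 139 and 141 CPM, slightly above both DMSO libraries (fold change 0.19, SE 0.26, adjusted p 0.836 by edgeR). Libraries of these groups did not overlap for 39.7% of all genes. The 95% interval of the fold change of SLC30A1 at 2.15 µM was -0.50 to 0.68.

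With intetumumab SLC30A1 stood at 175, 156 and 272 CPM at 5 µg/ml, against 109, 153 and 127 CPM with isotype. All 3 treated libraries were above all 3 isotype libraries, in a comparison where 15.9% of all genes did not overlap. The fold change of 0.63 (SE 0.24) did not pass the test (edgeR, unadjusted p 0.0221, adjusted p 0.432, range 0.197 to 0.778 over the alternatives). Without intetumumab 5 µg/ml replicate 3 it was 0.34. SLC30A1 stood at 120, 140 and 152 CPM at 1.5 µg/ml, within the isotype libraries (fold change 0.08, SE 0.25, adjusted p 0.997 by edgeR). The difference between the effects of the 2 agents was -0.54 (SE 0.36, adjusted p 0.718 by edgeR).

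MTF1, the zinc sensor that drives metallothionein genes, showed no change that passed the test with either agent. It stood at 76.3 and 50.1 CPM at 2.15 µM of VT107, against 51.5 and 88.0 CPM in DMSO, and the groups overlapped (fold change -0.14, SE 0.39, 95% interval -1.02 to 0.74, adjusted p 0.931 by edgeR). At 0.1 µM it stood at 86.0 and 77.9 CPM, between the DMSO libraries (fold change 0.23, SE 0.39, adjusted p 0.871 by edgeR). With intetumumab it stood at 36.9, 43.3 and 52.5 CPM at 5 µg/ml, against 53.3, 56.6 and 75.6 CPM with isotype. All 3 were below all 3 isotype libraries, in a comparison where 15.9% of all genes did not overlap. The fold change of MTF1 was -0.47 (SE 0.27, adjusted p 0.621 by edgeR). At 1.5 µg/ml it stood at 72.6, 66.0 and 56.4 CPM, within the isotype libraries (fold change 0.07, SE 0.26, adjusted p 0.997 by edgeR). The difference between the effects of the 2 agents was 0.34 (SE 0.44, adjusted p 0.868 by edgeR).

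**Figure D4:**
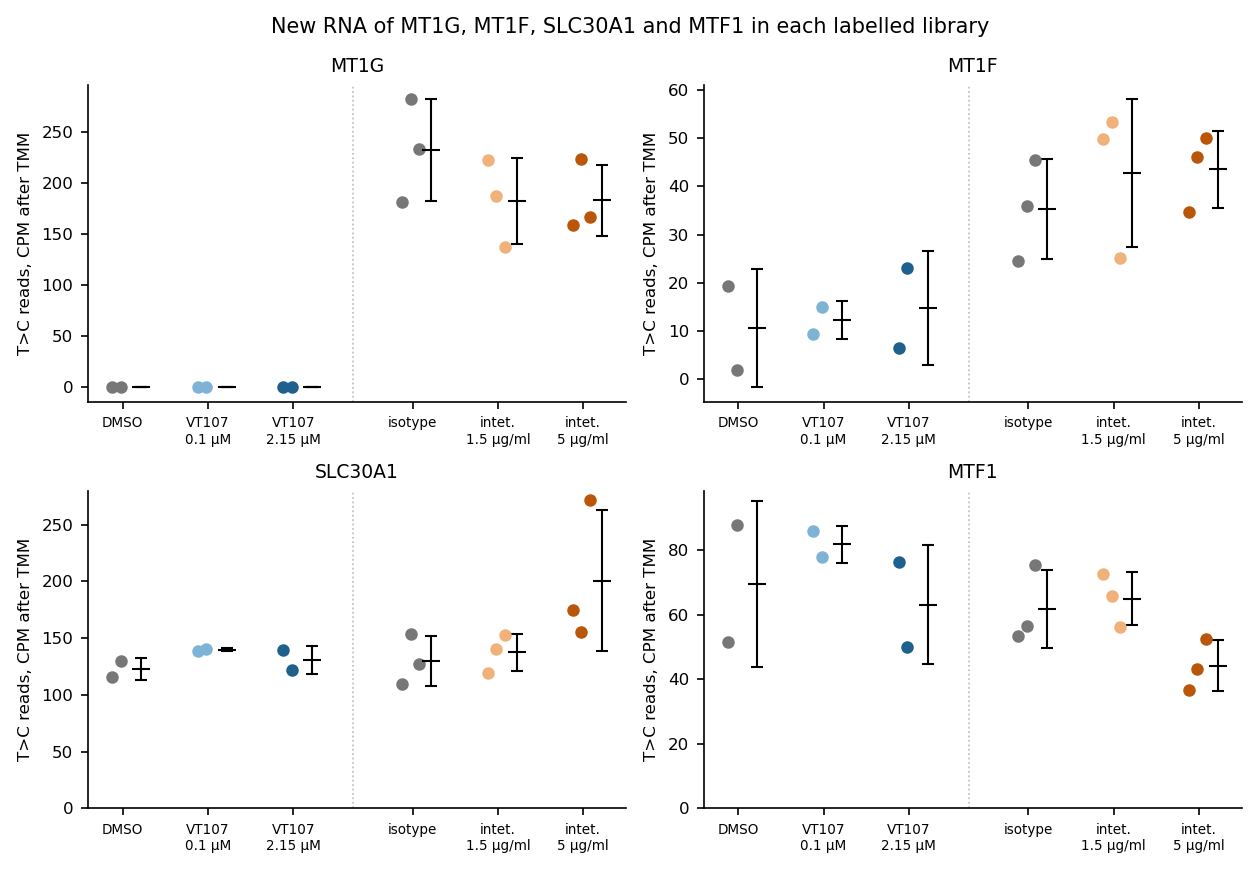
New RNA of MT1G, MT1F, SLC30A1 and MTF1 in CPM after TMM scaling (y axes) by group; points are libraries and the bar beside them is the mean ± SD, with each experiment scaled on its own. MT1G is at 0 in all 6 VT107-experiment libraries and at 138 to 282 CPM in the other 9, and SLC30A1 at 5 µg/ml of intetumumab is above the isotype libraries.

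**Figure D5:**
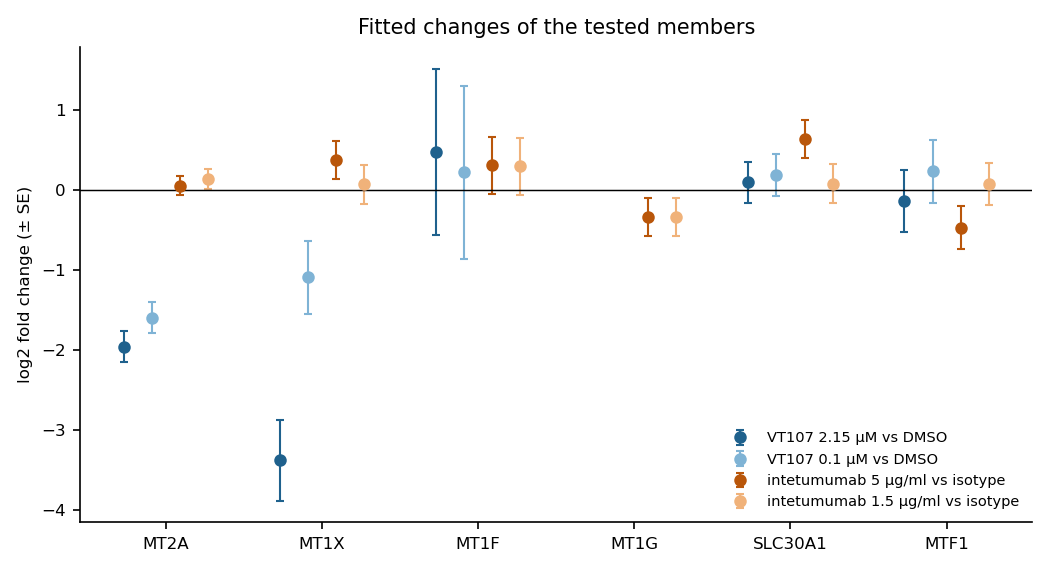
Fitted log2 fold changes of the 6 tested members (y axis, ± SE), treated group over its control, for both doses of each agent. MT2A and MT1X lie at -1.96 and -3.38 with VT107 at 2.15 µM, and every intetumumab point lies between -0.47 and 0.63.

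Of the 9 genes, 5 passed the filter on low counts with VT107 (MT2A, MT1X, MT1F, SLC30A1 and MTF1) and 6 with intetumumab, which adds MT1G. At 2.15 µM against DMSO, 1 of the 5 (MT2A) was called, where 0.109% of the 10083 genes tested were called, and this contrast chose the gene. At 0.1 µM against DMSO 0 of the 5 and 0% of all genes were called by edgeR, with 603 genes higher and 616 lower at an unadjusted p under 0.05 and 183 called by DESeq2. Between the VT107 doses 0 of the 5 and 0% were called, with 256 genes higher and 278 lower at an unadjusted p under 0.05 and 7 called by DESeq2. Libraries did not overlap for 2 of the 5 at 2.15 µM, both lower, and for 44.7% of all genes. At 0.1 µM they did not overlap for 3 of the 5 (MT2A and MT1X lower, SLC30A1 higher), and for 39.7% of all genes. Between the VT107 doses they did not overlap for 3 of the 5 (MT2A, MT1X and MTF1, all lower at 2.15 µM) and for 39.1% of all genes. The median fold change of the 5 was -0.14 at 2.15 µM and 0.19 at 0.1 µM, against 0.03 and 0.01 over all genes tested. Scaling by total counts in place of TMM moved the median of all genes to 0.18 and 0.12.

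With intetumumab, 0 of the 6 were called by edgeR at either dose. At 5 µg/ml 0.0887% of the 9024 genes tested were called. Of the 6 members, 1 (SLC30A1) had an unadjusted p under 0.05 by edgeR, and 0 were called by DESeq2. At 1.5 µg/ml 0% of all genes were called, with 217 higher and 277 lower at an unadjusted p under 0.05 and 35 called by DESeq2, 0 of them members. Between the doses 0 of the 6 members and 0.0111% of all genes were called. Libraries did not overlap for 2 of the 6 at 5 µg/ml (SLC30A1 higher, MTF1 lower) and 15.9% of all genes, and for 1 of the 6 at 1.5 µg/ml (MT2A higher) and 12.3% of all genes. The median fold change of the 6 was 0.18 at 5 µg/ml and 0.07 at 1.5 µg/ml, against 0.0035 and 0.0081 over all genes tested. In the difference between the agents 2 members (MT2A and MT1X) were called, where 0.0782% of 10227 genes were, and this contrast too was used to choose them.

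Reads that fit several near-identical genes can be counted once per gene or split, and how the authors handled them is not given in the sources used here. The counts of the metallothioneins are therefore uncertain between paralogs. MT1X, MT1F and SLC30A1 had even counts in all 6 VT107-experiment libraries. In the 9 intetumumab-experiment libraries MT1X had 1 odd count, MT1F 3 and SLC30A1 5. MT1X was thus even in nearly every library of both experiments. Exactly 1 odd count in 15 was found for 179 of 7554 genes examined in both experiments (2.37%). MT1A, with few counts, also had no odd count in the VT107 experiment. MT2A and MTF1 had odd counts in 2 and 4 of the 6 VT107-experiment libraries and in 6 and 5 of the other 9, so neither gene's counts had a common divisor above 1. Among 6281 genes with a common divisor of 1 in the intetumumab experiment, 241 (3.84%) were even in all 6 VT107-experiment libraries. An even pattern means that fewer independent reads may lie behind a count. SLC30A1, which belongs to another gene family, had it too, and its source was not tested. A constant factor leaves each fold change and each ratio of CPM in place, but not a share such as that of MT1X in the counts of MT1X and MT2A.

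Over the 15 labelled libraries the gene whose log2 CPM was most like that of MT2A was ENSG00000125398 (Pearson r 0.958), followed by ENSG00000034510 (r 0.932), among 8847 genes, of which 4 in all lay above 0.9. By Spearman's rho ENSG00000125398 was again the most alike (0.886), but ENSG00000034510 ranked 47 (0.70). Neither ID is paired with a name in the tables used here. With all libraries scaled together, ENSG00000125398 averaged 346 ± 88.7 CPM at 2.15 µM of VT107 and 454 ± 19.0 CPM at 0.1 µM, against 1154 ± 305 CPM in DMSO (SD, n = 2 each). Within the experiments r was 0.967 over the 6 VT107-experiment libraries and 0.521 over the 9 of the intetumumab experiment for that gene, and 0.962 and 0.552 for ENSG00000034510. MT1X ranked 243 over all 15 libraries (r 0.57), with r 0.84 within the VT107 experiment and 0.10 within the other. MT1X and MT2A were both chosen for lower counts with VT107, so a high r between them there follows from that choice. For SLC30A1 r was -0.18 over all, -0.64 within the VT107 experiment and -0.23 within the other. For MTF1 r was -0.05 over all, -0.14 with VT107 and -0.06 with intetumumab, and for MT1F it was -0.15, -0.20 and -0.03 in that order. These points share libraries and depth and are a description only.

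The 2 libraries made with no thiouridine give the background of T>C reads. In the VT107 experiment that library held 10702 counts, 0.949% of the mean labelled library, with 8 counts of MT2A (0.930% of its labelled mean), 2 of SLC30A1 and 0 of the other 7 genes. In the intetumumab experiment it held 4553 counts (0.628%), with 2 counts of MT2A (0.413%), 2 of MT1X (2.10%), 7 of MT1G (4.81%) and 0 of the other 6 genes. In the VT107 experiment background reads of MT2A were thus about as rare as those of all genes. In the intetumumab experiment the share of MT2A rests on 2 counts. The shares of MT1X and MT1G there, from 2 and 7 counts, were above that of all genes.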

How the data were processed

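SLAM-seq was measured in 15 labelled and 2 unlabelled libraries of SNU-761 cells. The deposited table holds raw counts, by gene, of reads that the authors assigned to newly made RNA with the SLAM DUNK pipeline, per the labels and the series' design text. The build was GRCh38, per the submitters' processing notes. Not given in the sources used here are the pipeline version, the annotation and how reads matching more than 1 gene were counted. All 17 columns were matched to samples by name, and groups were taken from the labels. The members, lists and motifs were chosen with earlier results of these data known; the text names the 9 members and the 2 genes most like MT2A.

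Genes were filtered with filterByExpr (minimum count 10), scaled by TMM and tested with the two-sided quasi-likelihood test of edgeR 4.0.16 in R 4.3.3, with p-values adjusted over all genes tested by the Benjamini-Hochberg method. Each experiment was fitted on its own, and the difference between the agents over all 15 labelled libraries. The standard error is the fold change divided by the root of the F value. The depth of 435343 to 1778876 counts per labelled library limits the precision of genes with few counts. DESeq2 1.42.0, total count scaling, no filter and counts divided by their common divisor were tried as alternatives. So were a replicate block, 1 fit of all labelled libraries, and leaving out in turn each library of the groups in a contrast. Other libraries of the same fit stayed in. The common divisor was taken over all 15 labelled libraries and was 1 for MT2A, MT1X, MT1F, MT1G, SLC30A1 and MTF1. That alternative left the counts of these genes as they were, so it could not check them for double counting. Because 0 rows of the gene table hold an Ensembl ID, other zinc transporters and cell type markers were not analysed here. Promoters were found in RefSeq for 4 of the 9 members.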

Additional observations from a re-analysis of the deposited data

Results flagged for a closer look

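The effects of the 2 agents differed for MT2A and MT1X, by -2.00 and -3.75 on the log2 scale for VT107 at 2.15 µM minus intetumumab at 5 µg/ml, in a fit of all 15 labelled libraries that tests the difference itself; both genes were chosen for this difference, so no p-value is given. Counts also appeared in libraries made with no thiouridine, above the limit of 3 counts that a count of 0 allows. There were 8 counts of MT2A in that library of the VT107 experiment, 0.930% of its labelled mean, close to 0.949% over all genes. There were 7 counts of MT1G in that library of the intetumumab experiment, 4.81% of its labelled mean, against 0.628% over all genes.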

How the results depend on the processing

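Fold changes of MT2A and MT1X ran from -2.13 to -1.75 and from -3.81 to -2.77 at 2.15 µM of VT107 over the alternatives. At 0.1 µM they ran from -1.78 to -1.40 and from -1.53 to -0.49. Both genes were chosen for lower counts with VT107 and did not overlap DMSO at either dose. That their sign was kept follows from this choice and is no check of it. Dividing by the common divisor over all labelled libraries left the counts of both genes as they were. Members called, with MT2A and MT1X chosen on these contrasts, were 1 at 2.15 µM in the reported fit, 2 with DESeq2, with no filter and with all labelled libraries in one fit, and 0 to 2 when 1 library was left out. Without either library at 2.15 µM or without DMSO replicate 1 it was 0, with a lone library assumed to vary like the other groups. At 0.1 µM 0 were called in the reported fit, and 1 with DESeq2, no filter, all labelled libraries in one fit, or counts divided by their divisor within the experiment, a choice made after seeing the data. In the difference between agents 2 were called, and 1 to 2 with 1 library left out; 1 without either library at 2.15 µM or DMSO replicate 1. Without MT1G, also chosen after seeing the data, the summed log2 ratio at 1.5 µg/ml of intetumumab was 0.14 in place of 0.04.

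Genes called over the whole table also varied with the alternatives. At 2.15 µM they were 11, against 245 with DESeq2, 199 with no filter, 155 in one fit of all labelled libraries, 5 with total count scaling, 5 with a replicate block and 1 to 26 with 1 library left out. At 0.1 µM they were 0, against 183 with DESeq2, 171 with no filter, 72 in one fit and 5 with divisors within the experiment, and between the doses 0, against 7 with DESeq2 and 4 with no filter. At 5 µg/ml of intetumumab they were 8, against 100 with DESeq2, 13 with no filter, 15 in one fit, 1 with a replicate block and 0 to 3 with 1 library left out. At 1.5 µg/ml they were 0, against 35 with DESeq2, and between the intetumumab doses 1, against 4 with DESeq2, 0 with a replicate block and in one fit, and 0 to 2 with 1 library left out. For the difference they were 8, against 104 with DESeq2, 42 with no filter, 4 with a replicate block and 1 to 25 with 1 library left out.

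Deviations of same-numbered libraries were nearly uncorrelated (r -0.0252 to 0.0614). Counting noise at this depth can hide a shared batch, so this cannot show whether the libraries were paired. With the replicate block 1 member was called at 2.15 µM and 2 in the difference. Fold changes near 0 changed sign. That of MTF1 at 2.15 µM was 0.0131 with total count scaling. With 1 library left out, MT1F ran from -0.69 to 2.85 at 2.15 µM, from -0.66 to 2.59 at 0.1 µM and from -0.98 to 2.50 in the difference. MTF1 ran from -0.48 to 0.30 at 2.15 µM, from -0.10 to 0.66 at 0.1 µM and from -0.0225 to 0.249 at 1.5 µg/ml. SLC30A1 ran from -0.0106 to 0.189 at 2.15 µM and from -0.033 to 0.201 at 1.5 µg/ml. MT2A ran from -0.0239 to 0.107 at 5 µg/ml, and MT1X from -0.14 to 0.20 at 1.5 µg/ml. The cause of these moves was not tested. Depth limits MT1F, MT1A, MT1E and MT1M most, with 0 to 46 counts in any library.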
